A study of Drosophila melanogaster with 3 samples.

Results

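Binding of Pdp1 was mapped by chromatin immunoprecipitation and sequencing (ChIP-seq) in whole Drosophila melanogaster embryos, and the results below concern its weak promoter peaks, those whose signal lay under the threshold for reproducible peaks. Per the labels, embryos of both sexes aged 0 to 24 h were used, and they came from a line (Pdp1-MiMIC-GFP) in which an eGFP exon inserted in an intron tags Pdp1 at its own locus. The fusion protein was precipitated with an antibody against GFP from chromatin sonicated to 200 to 800 bp. The samples form 1 group of 3 biological replicates, and all 3 carry the tag, so the series holds no contrast between conditions. Whole embryos of all ages up to 24 h were pooled, so a weak peak in every cell and a strong peak in few cells cannot be told apart.

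The pooled call held 27719 peaks on dm6, each with a signal value given by the authors' peak caller in its own arbitrary units. The 4622 peaks that passed the authors' irreproducible discovery rate (IDR) procedure, which compares peak ranks between replicates, were those of the pool whose signal reached 101.79 or more, and 23097 peaks lay under that value. A weak promoter summit was the summit of such a lower peak no more than 500 bp from the transcription start site (TSS) of any protein-coding gene that had no thresholded summit within 500 bp of any of its TSSs. The members were thus chosen by pooled signal and by distance from a TSS. There were 4511 of them, at 4245 genes. Thresholded promoter summits, 2257 in number and at 2883 genes, are the set they are compared with. Of the 13945 protein-coding genes, 11062 had no thresholded promoter summit, and 38.4% of these had a weak one. The remaining 6817 genes had neither.

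Pdp1 belongs to the PAR domain family of basic leucine zipper (bZIP) factors, which bind as dimers to palindrome-like sites of the form TTACGTAA or TTATGTAA. In adult flies it activates the clock gene Clk, opposing the related repressor Vri at the same sites, and in embryos it is known from muscle, fat body and gut. Peak lists below a threshold mix sites bound weakly or in few cells with local background, such as the open chromatin of active promoters, and a signal value by itself does not separate these.

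Stretches of sequence at 8 weak summits show the motifs that the later counts turn on. Each gene stands for another motif, the PAR site with 2, and was taken in order of pooled signal among the named members. They come from RefSeq Release 6, the dm6 build, and are written 5′ to 3′ in the direction of the gene's transcription, with the motif in capitals. Each is the window of 50 bp on either side of the summit, shortened where it ran into an annotated UTR. Mkp3 encodes a phosphatase of ERK, and its window (3L:19086854-19086954, minus strand, dm6) holds the PAR site TTATGTAA. That of ND-MNLL, a subunit of respiratory complex I (X:7893817-7893917, minus strand), holds the same site on the other strand. The window of flfl, a regulatory subunit of protein phosphatase 4 (3R:13683839-13683920, plus strand), holds TATCGATA, the DNA replication-related element (DRE) bound by the factor Dref. That of nAChRalpha7, an acetylcholine receptor subunit (X:19348822-19348922, minus strand), holds the E-box CACGTG, the form bound by Clk and Cyc. MED1, a Mediator subunit, has TATAAA on the opposite strand (3L:21634469-21634569, minus strand), and mid, a T-box factor of heart and muscle, has a GAGAGAG repeat as bound by the GAGA factor Trl (2L:5461333-5461433, plus strand). Hsc70-3, the chaperone of the endoplasmic reticulum, has a CACACACA repeat, here seen as its complement (X:11806354-11806449, minus strand). Of Hsp22, a mitochondrial small heat shock protein, only the 30 bases around a Mef2 site are shown (3L:9373532-9373561, plus strand).
Mkp3: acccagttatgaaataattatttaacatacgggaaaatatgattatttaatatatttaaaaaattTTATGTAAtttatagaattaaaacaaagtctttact
ND-MNLL: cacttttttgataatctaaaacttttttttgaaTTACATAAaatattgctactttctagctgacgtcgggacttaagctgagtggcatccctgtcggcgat
flfl: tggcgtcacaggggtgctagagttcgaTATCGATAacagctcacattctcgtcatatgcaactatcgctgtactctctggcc
nAChRalpha7: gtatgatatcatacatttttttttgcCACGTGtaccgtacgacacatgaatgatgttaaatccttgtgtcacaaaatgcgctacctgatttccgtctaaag
MED1: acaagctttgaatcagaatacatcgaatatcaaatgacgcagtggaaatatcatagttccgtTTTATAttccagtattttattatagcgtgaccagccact
mid: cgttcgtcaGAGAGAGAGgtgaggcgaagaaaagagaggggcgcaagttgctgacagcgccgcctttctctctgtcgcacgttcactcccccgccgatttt
Hsc70-3: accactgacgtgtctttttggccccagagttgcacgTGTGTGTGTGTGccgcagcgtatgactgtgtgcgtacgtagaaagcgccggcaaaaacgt
Hsp22: taattatttgTTAATATTAAgctgtatttt

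The pooled signal was used to choose the members, so its values are a description. Weak promoter summits had a pooled signal of 28.8 to 101.7 with a median of 45.4, against a median of 188 for thresholded promoter summits. Every weak peak was 410 bp wide, as were 65.0% of the thresholded promoter peaks. The median deposited −log10 q was 0.45 for the weak peaks, against 3.98 for the thresholded ones, and 54 weak peaks (1.20%) shared the q of the thresholded list. Just under the threshold stood the peaks of eIF3k, a translation initiation factor subunit, with a pooled signal of 101.67, CG13601 with 101.64 and flfl with 101.57. Just above it stood the thresholded peaks of MTPAP with 101.79 and of coro, which encodes coronin, with 101.79. The members of lowest signal were at CG3106 (28.79), CG6688 (28.79) and elB (28.80), a zinc finger gene of trachea and leg development.

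Most genes with a weak promoter summit had 1 (3286 genes), 811 had 2 and 148 had 3 or more, with a maximum of 7. A weak summit lay within reach of TSSs of several genes in 907 cases (20.1%), against 918 (40.7%) of the thresholded summits, so a thresholded peak was credited to several genes more often. The most crowded weak summit, at 3R:21359832-21360241 with a pooled signal of 50.1, lay at 10 pre-mod(mdg4) genes, trans-spliced exons of the insulator gene mod(mdg4). The rule keeps a weak summit away from thresholded ones at the TSSs of its gene, and few lay next to one: 226 (5.01%) lay within 1000 bp of a thresholded summit, and the median distance to one was 7579 bp. A thresholded summit elsewhere in the gene body was present in 11.3% of the genes with a weak promoter summit and 2.67% of those with neither, and in 35.3% of the genes with a thresholded promoter summit. Genes with a weak summit had 1.53 distinct TSSs on average, those with neither 1.18 and those with a thresholded summit 1.76. The number of TSSs thus moved with these counts, and its part in them was not tested. By arm, the share of genes without a thresholded promoter summit that had a weak one ran from 35.0% on 2L to 41.6% on X, with 38.9% of 72 genes on chromosome 4.

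Replicate lists, called on the same reads as the pooled list and holding 30000 peaks each, contained weak summits far less evenly than thresholded ones. A list was taken to hold a summit if it had one within 100 bp. Weak summits were found in 67.7% of cases in replicate 1, in 27.5% in replicate 2 and in 60.8% in replicate 3, or 52.0% ± 21.5 (SD, n = 3). Thresholded promoter summits were found in 96.6%, 82.4% and 96.1% of cases, or 91.7% ± 8.09 (SD, n = 3). Replicate 2 was the lowest for both sets, and for the weak summits the spread between replicates was wide. All 3 lists held 444 weak summits (9.84%), 1958 were in 2 lists, 1792 in 1 and 317 in none. With a match within 50 bp or 200 bp in place of 100 bp, all 3 lists held 4.48% and 15.01%. Leaving out replicate 2, 42.0% of the weak summits were in both other lists. Among the 4622 peaks of highest signal in a replicate, a list as long as the thresholded one, 71 weak summits appeared in 2 replicates and none in all 3.

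Support was larger at higher pooled signal. That signal comes from the same reads as the replicate lists, so this rise was in part given in advance. With the weak summits in 4 equal parts from the lowest to the highest pooled signal, the share found in all 3 lists was 0, 1.42%, 8.07% and 29.9%. The same parts of the thresholded promoter summits had 57.2%, 70.9%, 85.3% and 93.8%. Ranks among shared summits also differed. Spearman's rho of the replicate signals across weak summits was 0.16 for replicates 1 and 2 (740 summits), 0.25 for 1 and 3 (1896) and 0.08 for 2 and 3 (654), against 0.74, 0.79 and 0.72 across thresholded promoter summits. These correlations run across peaks of sets cut by pooled signal, which narrows the range for the weak ones. The thresholded list came from the IDR procedure on these replicates and held every pooled peak with a signal of 101.79 or more. Its peaks were thus not picked one by one for agreement, and 36 thresholded promoter summits were in only 1 replicate list. The difference in support and in rank between the sets was thus partly fixed by selection, and peaks are not independent replicates.

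**Figure D1:**
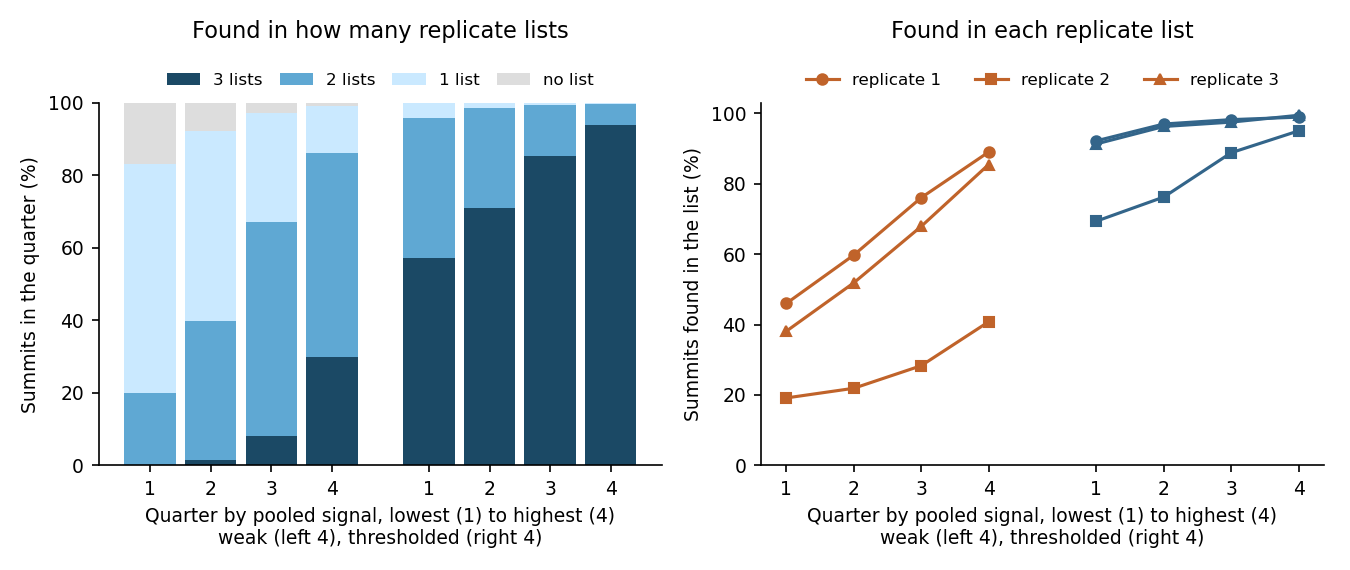
Left, share of summits (%) found in 3, 2, 1 or no replicate lists, for 4 equal parts by pooled signal of the weak promoter summits (left 4 bars) and of the thresholded ones (right 4 bars); right, share found in each replicate list for the same parts, with replicates as separate lines. In the strongest part of the weak summits 29.9% were in all 3 lists, and replicate 2 lies lowest in every part.

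The weak summits that ranked best in their worst replicate were at genes of varied roles. Mkp3 led them, with a signal of 51.7, 28.4 and 33.8 in replicates 1, 2 and 3, or 37.9 ± 12.2 (SD, n = 3). The summit 35 bp upstream of chic, which encodes the actin-binding protein profilin, had 41.5, 33.9 and 42.7 (39.4 ± 4.76, n = 3). The mitotic genes Klp3A, a kinesin, with 40.6, 24.7 and 33.6, and endos, an inhibitor of the PP2A phosphatase, with 40.0, 32.2 and 28.0, had similar values; both of their peaks also lie at a neighbouring gene. In the 10 members of this kind the lowest percentile within a replicate list was 79.6, for CG3702 in replicate 1. CRAT, carnitine acetyltransferase, RhoGAP71E and the unnamed genes CG4408, CG7889, CG15435 and CG3702 completed the 10. Replicate signals are not scaled to each other, and their list medians were 21.3, 15.1 and 15.2, so these SDs include differences of scale.

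Weak and thresholded promoter summits sat differently around the TSS, a property that the rule left free inside the 500 bp. Upstream of the nearest TSS lay 54.4% of the weak summits (95% Wilson interval 52.9 to 55.8%) and 84.2% of the thresholded ones (82.6 to 85.6%), a difference of -29.8 percentage points (two-sided Fisher's exact p = 1.47e-138). The same rule applied to the list of each replicate alone gave 50.5% ± 2.52 for weak summits and 81.3% ± 4.34 for the peaks of highest signal (SD, n = 3 each), so the difference was larger than the spread between replicates. From the weakest to the strongest part of the weak summits, the upstream share was 43.4%, 45.0%, 57.9% and 71.3%. Between the strongest part of the weak summits and the weakest part of the thresholded ones, next to each other in signal, it was 71.3% against 80.2%, a difference of -8.90 points (Fisher's exact p = 7.62e-05, a comparison added after seeing the data). Among summits in all 3 replicate lists the difference was -10.7 points (Fisher's exact p = 2.38e-07), and without replicates 1, 2 and 3 in turn it was -12.2, -25.8 and -17.2 points. All p-values over summits treat them as separate, while 491 pairs of neighbouring weak peaks overlapped.

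The bin just upstream of the TSS, 50 to 1 bp before it, held the most weak summits, 13.5%, whereas thresholded summits were most frequent 100 to 51 bp before it, with 19.7%. The median position was 17 bp upstream for weak and 97 bp upstream for thresholded summits. Weak summits had a long tail downstream, with 8.47% between 101 and 200 bp and 6.25% between 401 and 500 bp after the TSS, against 2.57% and 1.46% of the thresholded ones. From the weakest to the strongest part of the weak summits the median position was 39 bp and 23.5 bp downstream, then 24 bp and 50.5 bp upstream. The share within 100 bp of the TSS on either side, 40.9% of weak and 45.1% of thresholded summits (Fisher's exact p = 0.0010), was not stable. It was higher for weak summits without replicate 2 (by 7.57 points, Fisher's exact p = 1.73e-06) and by 2.81 points, past no threshold, where only 1 gene had a TSS within reach (Fisher's exact p = 0.0701). Within 200 bp it was lower by more (-12.3 points, Fisher's exact p = 2.81e-24), and the rule applied to each replicate's own list gave a difference of -10.9 points ± 1.96 (SD, n = 3).

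**Figure D2:**
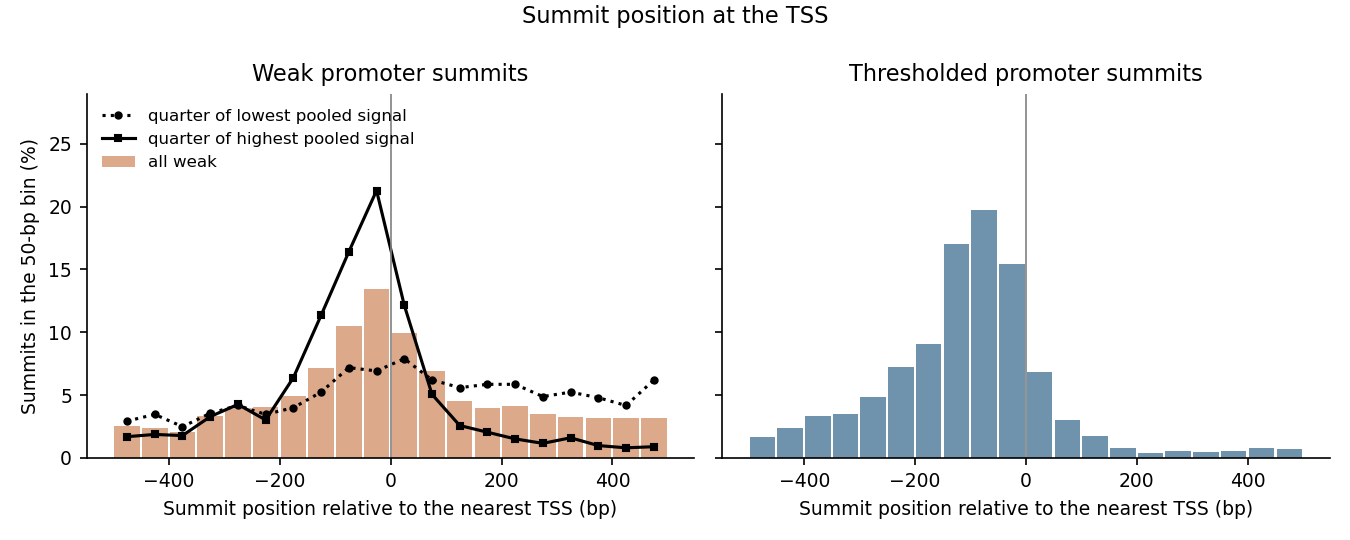
Share of summits (%) in 50-bp bins by their position relative to the nearest TSS (negative is upstream), for weak promoter summits on the left, with the parts of lowest and highest pooled signal as lines, and thresholded ones on the right. The weak part of highest signal rises to a peak just upstream of the TSS, while the part of lowest signal has a lower maximum at the TSS, 7.89% of summits from 0 to 49 bp, and extends downstream.

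The part of the gene that the summits fell in differed as well. Coding sequence held 783 weak summits (17.4%), against 15 thresholded promoter summits (0.665%), and 5' UTRs held 26.4% against 17.2%. Introns had 17.4% of the weak and 22.9% of the thresholded summits, sequence outside protein-coding genes 37.5% and 57.8%, and 3' UTRs 1.29% and 1.46%. Weak summits in coding sequence had a median pooled signal of 37.2 and were in all 3 replicate lists in 3.96% of cases. Those outside protein-coding genes had a median of 53.5 and 15.2%. Base composition moved with position: G and C made up 56.6% of the bases within 50 bp of weak summits in coding sequence and 40.6% at those outside protein-coding genes. Examples in coding sequence were Pdf, the neuropeptide of the clock neurons, with the summit 204 bp after its TSS and a signal of 15.9 in replicate 1 and no summit in replicates 2 and 3, and cad, a posterior patterning gene, with the summit 495 bp after its TSS.

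At the summits themselves G and C averaged 44.8% ± 11.2 over the weak summits and 36.6% ± 9.41 over the thresholded ones (SD over summits). Among the members present in replicates 1, 2 and 3 the mean was 45.1%, 43.5% and 44.0%. Windows 500 bp upstream held 40.3% and those 500 bp downstream 46.1% for the weak set, and 43.2% and 48.3% for the thresholded set. Thus thresholded summits were poorer in G and C than both flanks, whereas weak summits lay between theirs. Composition was not corrected for in the motif tests that follow, and its part in them was not tested.

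The PAR site was rarer at weak summits than in the windows upstream and than at thresholded summits, from few sites. TTACGTAA or TTATGTAA, searched on both strands, lay within 50 bp of 23 weak summits (0.510%, 95% Wilson interval 0.340 to 0.764%), against 52 windows 500 bp upstream (exact McNemar adjusted p = 0.0018) and 35 windows 500 bp downstream (adjusted exact p = 0.211). Thresholded promoter summits had it at 26 of 2257 (1.15%, 0.787 to 1.68%), a difference of -0.642 points (Fisher's exact, adjusted p = 0.0111). In each replicate alone the share was 0.626% ± 0.112 for weak summits and 1.06% ± 0.056 for the peaks of highest signal (SD, n = 3 each). At all 19252 distinct TSSs of protein-coding genes, windows of the same width held the site in 0.452% of cases. A looser form that also takes TTATATAA was at 48 weak summits (1.06%) and 48 thresholded ones (2.13%; Fisher's exact, adjusted p = 0.0017). The difference from the upstream windows passed the threshold in 1 of the 10 other settings run, and that from thresholded summits in 2 of 9. Among members in all 3 replicate lists the PAR site was 0.676 points more frequent at the summit than upstream (adjusted exact p = 0.755), and among summits in replicates 2 and 3, leaving out replicate 1, weak and thresholded ones differed by 0.0474 points (adjusted exact p = 1).

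Of the named motifs, the DRE had the smallest p-value for an excess at weak summits over the windows upstream. TATCGATA lay within 50 bp of 163 weak summits (3.61%, 3.11 to 4.20%), 50 windows 500 bp upstream (1.11%) and 7 windows 500 bp downstream (0.155%), with an exact McNemar adjusted p of 9.11e-15 against the upstream windows. It was also more frequent at the summit under each of the 10 other settings run, by 1.24 to 4.89 points. Members found in replicates 1, 2 and 3 had it at 4.13%, 2.74% and 4.45% (3.77% ± 0.908, SD, n = 3). Thresholded promoter summits had it at 95 of 2257 (4.21%, 3.46 to 5.12%), and the difference from weak ones, -0.596 points, missed the threshold (Fisher's exact, adjusted p = 0.296). Against the lower part of the thresholded summits alone it passed (-1.62 points, adjusted exact p = 0.0406), as it did within 100 bp (-2.30 points, adjusted exact p = 0.0014). Under 6 of the 9 other settings the difference was positive and missed the threshold, at 0.0595 to 1.07 points, so its direction was not settled. With rising pooled signal the share over the 4 parts of the weak summits was 1.68%, 2.22%, 4.97% and 5.59%, and over those of the thresholded ones 6.19%, 4.26%, 3.90% and 2.48%. The largest shares thus stood on either side of the threshold. Of the weak summits upstream of the TSS 5.58% had a DRE, and of those downstream 1.26%, while all TSS windows had 4.48%. The rule keeps weak summits near a TSS, so windows 500 bp away cannot tell a motif of these summits from one of TSSs in general. The DRE share over all weak summits, 3.61%, was below that at all TSSs, while that of the upstream ones, 5.58%, was above it. Windows at TSSs and at summits up to 500 bp from one are unlike in position. This holds for each motif set against all TSSs, and the part of position in these differences was not tested.

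Named members with the site were flfl, with replicate signals of 55.8 and 38.6 in replicates 1 and 3 and no summit in replicate 2, and Su(H), the transcription factor of Notch signalling, 9 bp upstream of its TSS with 48.8, 32.5 and 18.1. Further ones were AlaRS, the alanyl-tRNA synthetase, Jra, the fly Jun, the ribosomal protein genes RpL39 and RpL36A, and Nup58 of the nuclear pore. Ohler motif 1, the site of M1BP at promoters of broadly expressed genes, behaved likewise with 51 weak summits, 17 upstream and 2 downstream windows (exact McNemar adjusted p = 0.00011). It was at 1.13% of weak and 0.798% of thresholded summits (Fisher's exact, adjusted p = 0.296). That difference, 0.333 points, was 0.938 points without replicate 2 (adjusted exact p = 0.0187) and 0.931 points with the upper part of the weak summits by signal (adjusted exact p = 0.0127), both past the threshold. The excess over the upstream windows, 0.754 points, was 0.288 points within 25 bp (adjusted exact p = 0.0585). It missed the threshold, at a larger size, in the members of all 3 lists (1.35 points, adjusted exact p = 0.156) and without replicate 3 (0.946 points, adjusted exact p = 0.195). At all TSSs the share was higher than at weak summits, 2.73%.

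**Figure D3:**
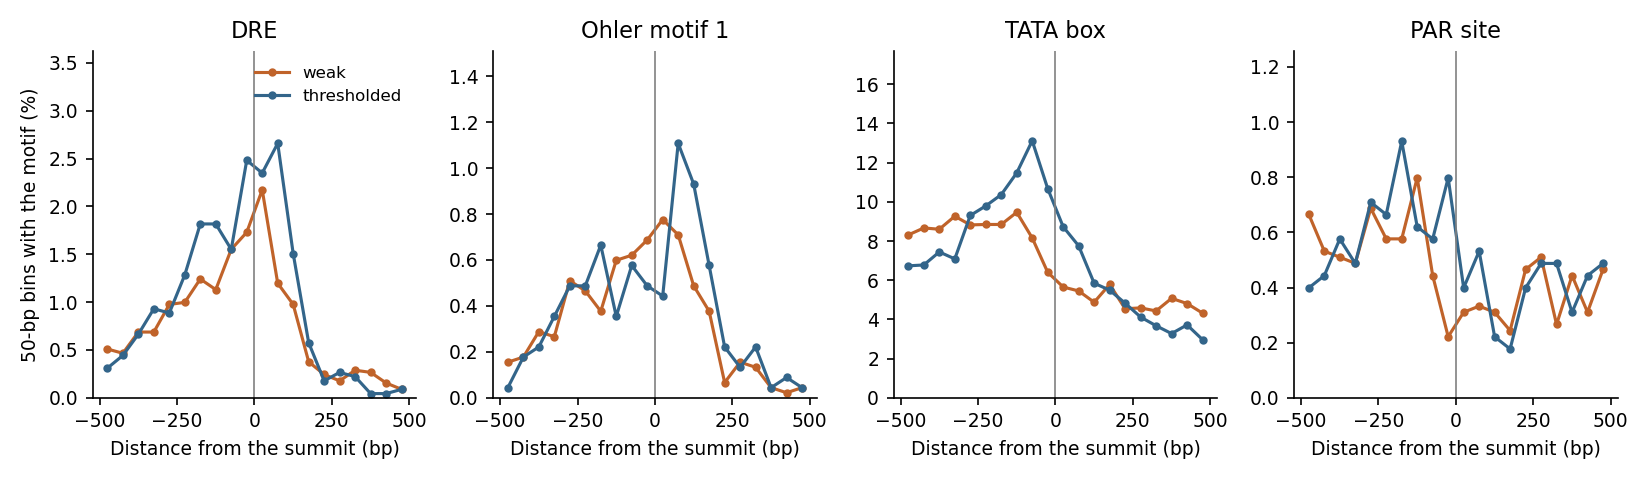
Share of 50-bp bins (%) with a DRE, Ohler motif 1, a TATA box or a PAR site by distance from the summit, upstream negative, for weak and thresholded promoter summits. The DRE is highest around both kinds of summit, while the PAR site lies at 0.222% and 0.310% in the 2 bins next to a weak summit.

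AT-rich motifs were scarcer at weak summits than upstream of them and than at thresholded summits. The TATA box TATAAA was near 501 weak summits (11.1%), against 685 upstream windows (15.2%; exact McNemar adjusted p = 8.51e-08) and 387 thresholded summits (17.1%; Fisher's exact, adjusted p = 9.18e-11). The Mef2 site, bound by the muscle factor Mef2, was near 137 (3.04%), against 214 upstream windows (4.74%; exact McNemar adjusted p = 9.1e-05) and 128 thresholded summits (5.67%; Fisher's exact, adjusted p = 1.76e-06). Against the downstream windows, which hold more G and C, both were more frequent at the weak summit, by 2.64 points (adjusted exact p = 0.00010) and by 1.13 points (adjusted exact p = 0.0013), so their direction depended on the side. Windows at all TSSs had TATA boxes in 15.5% and Mef2 sites in 2.10% of cases, the second below the share at weak summits. Among weak summits upstream of the TSS, the difference from the upstream windows was -0.204 points for TATA boxes (adjusted exact p = 0.872, added after seeing the data) and -0.530 points for Mef2 sites (adjusted exact p = 0.428). Against thresholded summits the differences, -6.04 points for TATA boxes and -2.63 for Mef2 sites, kept their sign under the 9 other settings. They missed the threshold among summits of all 3 lists, where they were -2.22 and -2.33 points (adjusted exact p = 0.653 and 0.553), and without replicate 1, where they were -1.87 and -2.10 points (adjusted exact p = 0.587 and 0.396). In each replicate alone, TATA boxes were at 10.9% ± 0.766 of weak summits and 17.2% ± 2.07 of the peaks of highest signal, and Mef2 sites at 2.98% ± 0.428 and 5.78% ± 0.702 (SD, n = 3 each).

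Repeats ran the other way. CACACACA was near 90 weak summits (2.00%) and 18 thresholded ones (0.798%; Fisher's exact, adjusted p = 0.00041), and GAGAGAG near 99 (2.19%) and 30 (1.33%; adjusted exact p = 0.0234). The difference missed the threshold under 4 of the 9 other settings for CACACACA and under 7 for GAGAGAG, and neither repeat passed the threshold against the windows upstream (exact McNemar adjusted p = 0.841 and 0.469). GAGAGAG was more frequent than in windows 1000 bp upstream (by 0.887 points, adjusted exact p = 0.00568) and, with 100 bp searched on either side of each centre, than in those 500 bp upstream (by 1.26 points, adjusted exact p = 0.00447). CACACACA was rarer at weak summits than 500 bp downstream (-1.17 points, exact McNemar adjusted p = 0.0012). All TSS windows had CACACACA in 1.81% and GAGAGAG in 1.54% of cases. For thresholded summits, the flanks held CACACACA in 2.48% of cases upstream and 4.79% downstream, above the 0.798% at these summits. The E-box CACGTG was near 61 weak summits, 35 windows upstream (exact McNemar adjusted p = 0.0148) and 62 windows downstream, and near 25 thresholded summits (1.35% against 1.11%; Fisher's exact, adjusted p = 0.423). The excess over the upstream windows, 0.576 points, passed the threshold under 2 of the 10 other settings and ran from -0.0887 to 1.002 points over them. All TSS windows had the E-box in 1.82% of cases, above the share at weak summits. CAGGTAG, bound by the early embryonic factor Zelda, was near 34 weak (0.754%) and 11 thresholded summits (0.487%; Fisher's exact, adjusted p = 0.296). The difference passed the threshold within 100 bp (0.710 points, adjusted exact p = 0.0216). In the upper part of the weak summits by signal the site was rarer at the summit than upstream, with a difference of -0.621 points (adjusted exact p = 0.034). In summits of all 3 replicate lists none of the 10 motifs differed between weak and thresholded ones by Fisher's exact test, nor did any at an unadjusted p under 0.05, with 444 weak summits left and a smallest adjusted p of 0.553, for the Mef2 site.

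**Figure D4:**
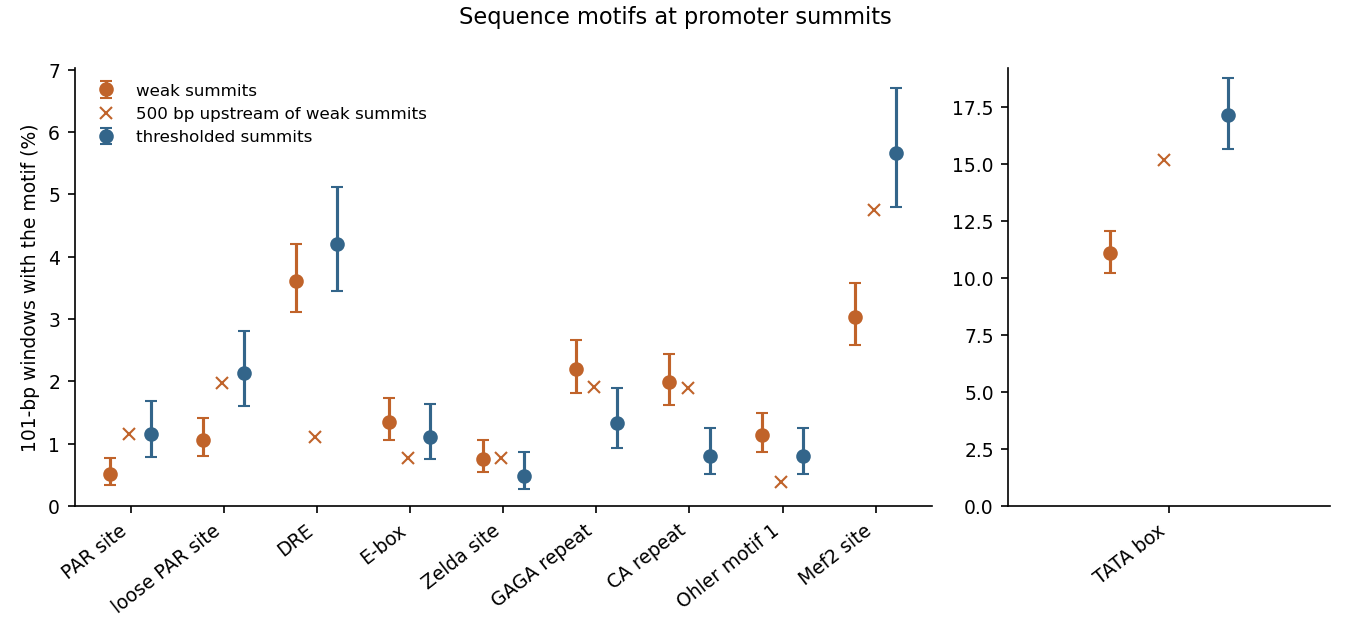
Share of 101-bp windows (%) with each of 10 motifs at weak promoter summits, 500 bp upstream of them (crosses) and at thresholded promoter summits, with 95% Wilson intervals that cover counting error only. The DRE stands at 3.61% of weak summits against 1.11% upstream of them, and the PAR site at 0.510% against 1.15%.

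All 8-mers were then compared between weak summits and the windows upstream. As with the named motifs, this comparison cannot tell words of these summits from words of TSSs in general. Of 16926 tested, 50 were more frequent at the summit (0.295%) and 26 less frequent (0.154%) at an adjusted exact McNemar p under 0.05. The smallest p-values belonged to the DRE itself, TATCGATA (163 summits against 50 windows), and to ATCGATAG, which overlaps it (165 against 51), both with an adjusted exact p of 1.01e-11. They were followed by CGTTGCCA (73 against 15), GGTCACAC (121 against 42), ACTATCGA (87 against 24), ATATCGAT (122 against 49), GCGTTGCC (61 against 14) and CAGTGTGA (73 against 20). Grouped after the values were seen, 10 of the 50 held ATCGAT or TATCGA, 7 were part of Ohler motif 1 and 33 were neither. Some of the 33 overlap words of these groups, such as AACTATCG and CGATAGTC for the first and CACGGTCA for the second, so they are not all separate from them. Of the 50, 39 could be tested at thresholded promoter summits, and 24 of these were also more frequent there than upstream, where 288 of 4875 8-mers passed. The 26 less frequent ones were AT-rich, 24 of them with at most 2 G or C, led by AAAACAAA (119 against 204) and ATTATAAA (47 against 100). Of the 26, 24 could be tested at thresholded summits, where none passed the threshold as less frequent and 2 passed it as more frequent. With the windows downstream, 113 were more and 15 less frequent, and in members of all 3 replicate lists, where 122 8-mers could be tested, 1 was more frequent and none less (also none at an unadjusted p under 0.05).

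Small RNA genes, which often give high background in ChIP-seq, were no more frequent at weak summits. A tRNA, snRNA, snoRNA, rRNA or miRNA hairpin gene lay within 250 bp of 16 weak summits (0.355%, 0.218 to 0.575%) and of 8 thresholded ones (0.354%, 0.180 to 0.698%; Fisher's exact p = 1). The 16 were 6 tRNA, 5 miRNA, 4 snoRNA and 1 snRNA gene, and the highest was at CG31279 beside tRNA:Thr-AGT-1-4, with replicate signals of 38.2, 18.0 and 33.7.

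Gene groups differed in how far weak peaks filled in where thresholded ones were lacking. Counts are given for genes with a weak promoter summit among those with no thresholded one, beside the 38.4% of all such genes, and signals and positions are those of the strongest weak summit of a gene. Among the genes named below outside the clock list, phol, RpL29, S6k, Fatp1, sd and Gr63a share that summit with a neighbouring gene. Several groups of broadly expressed genes were above it. Among genes of chromatin proteins 19 of 22 had a weak summit (86.4%), with a median pooled signal of 73.4 and 18 of the 19 upstream of the TSS. Psc and ph-d of the Polycomb group, with pooled signals of 100.7 and 94.5, E(Pc) with 94.7 and phol with 90.0 were the highest. None of these 4 summits was found in replicate 2, although a further summit of ph-d (74.0) was in all 3 lists. Ribosomal proteins of the small subunit had 12 of 16 (75.0%), led by RpS30 (97.8), and of the large subunit 10 of 15 (66.7%), led by RpL29 (92.2) and RpL12 (91.0). Mitochondrial ribosomal proteins had 30 of 43 (69.8%), aminoacyl-tRNA synthetases 14 of 22 (63.6%) and nuclear pore genes 10 of 16 (62.5%). Subunits of complexes I to V had 28 of 64 (43.8%), Mediator 9 of 18 and the proteasome 13 of 33 (39.4%), which is near the background.

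Growth genes had 7 of 11 (63.6%), led by Myc (79.7), the kinase gene S6k (63.4) and Pdk1 (58.6), and fat body and lipid genes 6 of 14 (42.9%), led by Fatp1 (101.5) and ACC, acetyl-CoA carboxylase (97.6). The other bZIP genes included CrebB (88.3), crc, the fly ATF4 (83.6), and Jra (76.2), with 5 of 12 (41.7%) for the list, Pdp1 itself among them.

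Early patterning genes had 13 of 23 (56.5%), with a median pooled signal of 34.0 and none of the 13 in all 3 replicate lists. The summit 154 bp upstream of en, a segment polarity gene, had a signal of 41.6 in replicate 1 and was missing in the other two, and that 112 bp upstream of eve, a pair-rule gene, had 11.2 in replicate 2 alone. Hox genes and their neighbours in the complexes had 6 of 10 (60.0%), with Abd-B (52.6), Ubx (51.4) and Dfd (48.1) the highest. Dfd had 17.4, 17.3 and 17.4 in replicates 1, 2 and 3, which are not scaled to each other. These values stood at the 28.7, 64.2 and 59.3 percentiles of the replicate lists. The bcd and ftz genes are in both of these lists.

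Contractile muscle genes were near the background, with 10 of 25 (40.0%), and muscle specification genes were under it, with 7 of 22 (31.8%). Actn, which encodes alpha-actinin, led the contractile genes with 33.0 and 36.5 in replicates 1 and 3 and no summit in replicate 2. A further Actn summit of nearly the same pooled signal (92.7), shared with the nuclear receptor gene usp, had 38.2, 24.1 and 24.3 in replicates 1, 2 and 3. Of the genes of both lists, Actn alone had a weak summit in all 3 replicate lists. In the specification list sd and mid were the highest, and pnr, a GATA factor of heart and dorsal tissue, had a DRE, a GAGA and a CA repeat within 50 bp of its summit, with a signal of 14.9 in replicate 1 and 37.2 in replicate 3.

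In 8 further lists the share was under the background. Odorant, gustatory and ionotropic receptors had 18 of 178 (10.1%), with Ir67c (86.9) and the carbon dioxide receptor genes Gr63a (85.3) and Gr21a (70.2) the highest, the Gr63a peak lying nearer to the TSS of its neighbour Lamtor4. Cpr cuticle genes had 16 of 70 (22.9%), with a median pooled signal of 32.2, Jonah and trypsin proteases 6 of 27 (22.2%), all 6 downstream of the TSS, and neuropeptides 8 of 33 (24.2%). Cytochrome P450 genes had 24 of 80 (30.0%), ion channels 12 of 35 (34.3%) and heat shock genes 6 of 20 (30.0%), led by Hsp60A (100.6). Of 111 replication histone genes, which lie in a tandem repeat where reads may map to many copies, none had a weak or a thresholded promoter summit. The lists overlap in a few genes and are small, and no test was made of them.

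**Figure D5:**
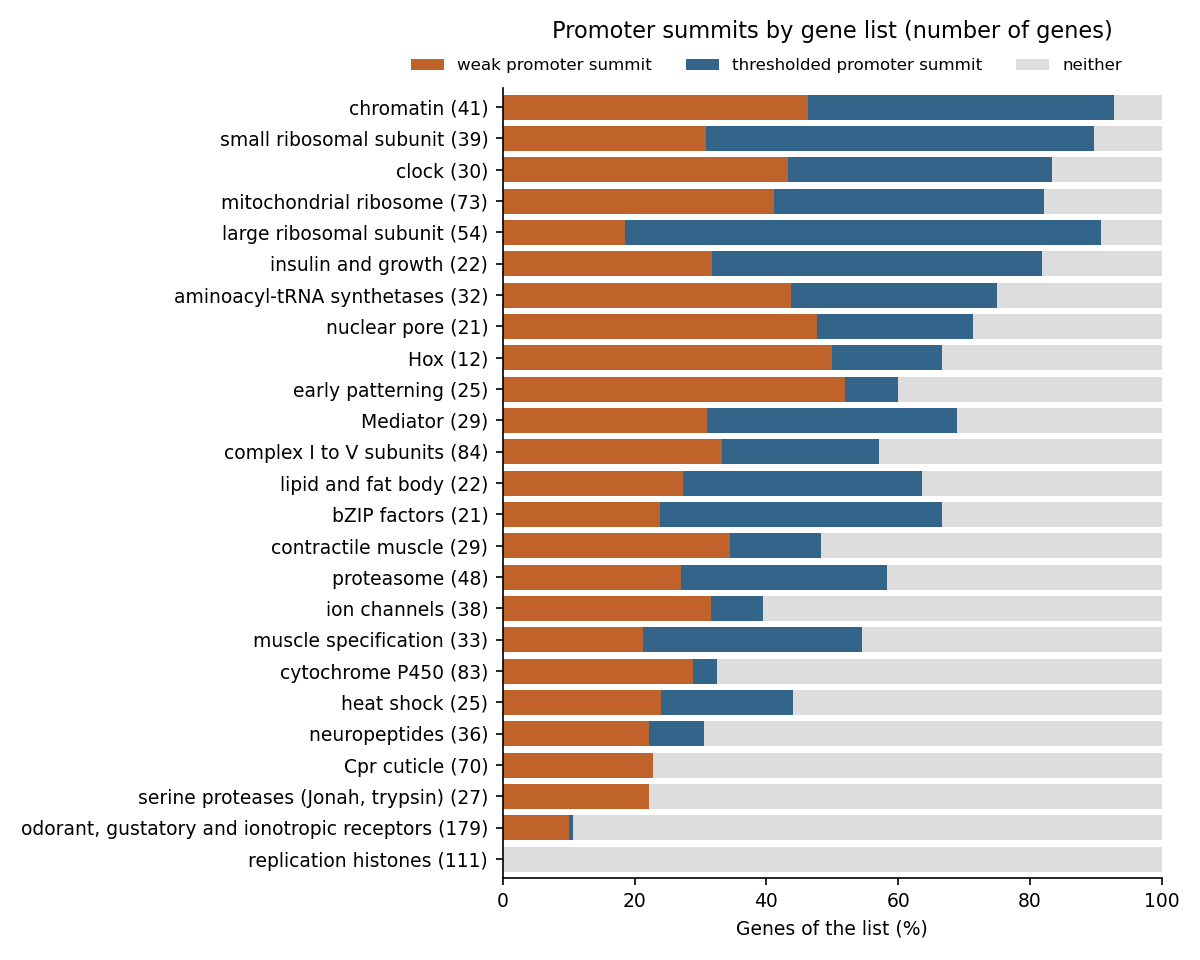
Share of the genes (%) of 25 lists with a weak promoter summit, with a thresholded promoter summit or with neither, the number of genes in parentheses, ordered by the weak share among genes with no thresholded summit. Chromatin genes (19 weak, 19 thresholded, 3 neither) lie at the top, and replication histones (none of 111) at the bottom.

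Clock genes had a weak promoter summit in 13 of the 18 without a thresholded one (72.2%), and 12 of 30 had a thresholded one. These genes have a median of 2 distinct TSSs, against 1 in the chromatin and receptor lists. The strongest was at tyf, which promotes translation of per, 43 bp upstream of its TSS at X:4116772-4117181, with 50.1, 22.1 and 27.6 in replicates 1, 2 and 3. The same peak lies at the TSS of the neighbouring acetyltransferase gene Tip60, so it cannot be credited to tyf alone. Pdp1 itself had a weak summit at 3L:7855766-7856175, in an intron 423 bp upstream of the nearest TSS, with 28.6, 43.5 and 28.7 (33.6 ± 8.62, SD, n = 3). Pdp1, norpA, nmo and cwo also had a thresholded summit elsewhere in the gene body. At norpA, the phospholipase C of light input, the values were 47.8, 20.5 and 26.0, and at tim, a partner of per in the negative arm of the clock, 32.2, 19.7 and 19.3 at a summit 372 bp after a TSS. The strongest weak summit was in all 3 replicate lists for these 4 clock genes.

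The strongest weak summit of the other clock genes rested on fewer replicates. Atx2 (45.8 and 30.9), lark (31.8 and 29.8), nmo (19.9 and 23.7), jet (25.8 and 18.3) and Nup153 (20.1 and 14.8) had a summit in replicates 1 and 3 and none in replicate 2. A further Atx2 summit (3R:15408397-15408806, pooled signal 76.7) was in all 3 lists, with 26.7, 40.5 and 13.8. The repressor gene cwo had 15.1 and 11.5 in replicates 1 and 2, at the 9.49 and 10.5 percentiles of their lists. The summit 118 bp upstream of per had 10.9 in replicate 2 alone, at the 0.367 percentile of that list, and Usp8 (28.4, replicate 2) and Pdf (15.9, replicate 1) were also found once. The strongest summits of lark, Nup153 and Usp8 also lie at a neighbouring gene, so they cannot be credited to these clock genes alone. Clk, cyc, Pdfr, CkIIalpha and the opsin gene Rh7 had neither a weak nor a thresholded promoter summit. None of the strongest summits of the 13 clock genes had a motif of the 10 within 50 bp. Each motif was also rare over all weak summits, with the TATA box at 11.1%, the DRE at 3.61% and the Mef2 site at 3.04% the most frequent. With 13 summits, the absence cannot be read as a trait of clock genes.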

How the data were processed

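Per the labels, 3 biological replicates of Pdp1-eGFP embryos were immunoprecipitated with anti-GFP. The authors deposited narrowPeak lists. Per the listings deposited with them, each replicate and the pool were called against a control, and a thresholded list came from the IDR procedure. The peak caller and aligner were not given in the sources used here. The deposited signal value is the caller's own, unscaled between lists, and the −log10 q-value, also deposited, was only described. Depth is unknown, and intervals cover counting error only. The dm3 lists were not used.

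Members and lists were chosen with earlier results of these data known. Summits (start plus offset) on 6 arms were set against Ensembl release 115 TSSs and the Release 6 RefSeq sequence, whose arms held every peak end. Motifs and 8-mers (in at least 20 windows) were tested by the exact McNemar test within 50 bp of the summit against windows 500 bp upstream, weak and thresholded summits by Fisher's exact test, adjusted by Benjamini-Hochberg within each family at 0.05 (Python 3.11.15, scipy 1.17.1, pandas 2.3.3, numpy 2.4.6). The 8-mer test was tested on simulated data. The 25 lists were matched by symbol, 10 of their entries through RefSeq synonyms, and 7 stayed unmatched. The pattern for cytochrome P450 genes was narrowed after seeing that it took a cyclophilin. Annotated noncoding RNAs named as mir genes were taken as miRNA hairpins. Named members followed a rule: the 10 of highest signal, the 5 of lowest and the 5 thresholded summits nearest them, the 10 of highest lowest-replicate percentile, every clock gene and up to 4 of each list. Other genes were chosen after seeing the data. Sequences on arm 2R are not shown. Alternatives were other windows, flanks, matches and word lengths, subsets by signal and replicate, and leaving out each replicate, that is, keeping summits found in both other lists.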

Additional observations from a re-analysis of the deposited data

How the results depend on the processing

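The lower upstream share of weak summits held under each of its 9 alternatives (-33.8 to -8.90 points). The share within 100 bp turned within 50 bp of the TSS (1.23 points), in all 3 lists (2.02) and with 1 gene within reach (2.81), was -12.3 within 200 bp and -12.6, -11.2 and -8.78 in the own list of replicates 1, 2 and 3, and ran from -4.16 to 7.57 with a replicate left out. Members in all 3 replicate lists lay at 542 genes, and with a replicate left out the share in both others ran from 14.5 to 42.0%. More and less frequent 8-mers numbered 362 and 289 (as 6-mers), 113 and 15 (downstream flank), 88 and 7 (flank at 1000 bp), 136 and 64 (100 bp windows), 1 and 0 (all 3 lists), 4 less frequent (upper part by signal), and 2 to 54 and 0 to 15 with a replicate left out. Motifs past the threshold against the flank, 7 in the main test, numbered 3 (flank at 1000 bp), 4 (25 bp windows), 1 (all 3 lists), 2 (upstream summits, added after seeing the data) and 1 to 6 with a replicate left out, and those that differed from thresholded summits, 6, numbered 0 (all 3 lists) and 0 to 7. Single motifs turned against the flank in all 3 lists (PAR 0.676, looser PAR 0.225 points), with a replicate left out (PAR -0.580 to 0.459, looser PAR -1.002 to 0.459, TATA -4.11 to 1.99), against the downstream flank (E-box -0.0222, TATA 2.64, CA repeat -1.17, Mef2 1.13) and at 1000 bp (E-box -0.0887). Against thresholded summits, with a replicate left out, PAR ran from -0.708 to 0.0474, looser PAR from -1.18 to 0.110 and GAGAGAG from -0.131 to 1.14. Leaving out replicate 1 or 3 keeps summits that replicate 2 holds, so 654 and 740 remain, which limits these tests; the cause of the other changes was not tested. No paired analysis was possible because the samples form 1 group.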
